A study of Mus musculus with 237 samples.

Results

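The genes described here were the 3 members of the p53 family, Trp63, Trp53 and Trp73, and 3 classical p53 targets, Cdkn1a, Mdm2 and Ccng1. They were chosen by name, and all 6 of 6 were found by Ensembl ID among the 55335 genes of the count table. Single cells had been taken from the skin of C57BL/6N embryos at E14.5 (carried by surrogate ICR mothers), and each cell was its own full-length cDNA library. The labels hold 237 cells, of which 66 are wild type, from 3 embryos, and 171 are Trp63 mutant, from 7 embryos. The labelled wild-type cells are 45 of the basal layer (WT-KCB), 8 of the intermediate layer (WT-KCI), 8 Krt17-high cells (WT-KCP) and 5 cells under 4 other labels. The mutant cells are 50 of the surface ectoderm remnant (p63 KO-SER), 28 Krt5- and Krt14-high cells (p63 KO-SKH), 70 fibroblasts, and 23 cells labelled unknown, omitted or neural progenitor. All 70 fibroblasts came from a single mutant embryo. All p63 KO-SKH and most p63 KO-SER cells came from other mutant embryos. The mutants were edited as zygotes with a single guide, so that each embryo could carry alleles of its own and be mosaic. Wild-type epidermis was peeled off with dispase before trypsin, mutant fetuses were put in trypsin whole, and both were sorted as negative for propidium iodide, CD45, TER119 and CD140a. The cDNA was further screened by qPCR, for Krt5 in wild-type and for Krt8 in mutant cells. Both genes also define states below, so the number of columns per state says nothing of the skin. Genotype and preparation cannot be told apart. The cell types in the labels were given by the authors from marker genes in these same cells.

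p63 is the transcription factor that commits the surface ectoderm to a stratified epidermis and keeps basal keratinocytes proliferating. It is made from a distal promoter, giving TAp63, and from an internal promoter, giving ΔNp63, the main form of basal cells. p53 and p73 share its DNA-binding domain. p53 induces Cdkn1a (p21, an inhibitor of cyclin-dependent kinases), Mdm2 (the ubiquitin ligase that degrades p53) and Ccng1 (cyclin G1), and family members can bind the same response elements.

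Each column of the table carries the name of a sequencing run. Of 237 columns, 16 could be paired with a labelled cell, all of 1 wild-type embryo (11 WT-KCB, 1 WT-KCI and 4 WT-KCP). The other 221 columns carry no label, so no column outside the 16 was given a genotype. All 237 were sorted into states by keratin and collagen genes in counts per 1000000 (CPM). A mesenchymal column had Col1a1 and Col3a1 at 100 CPM or more. A simple-keratin column had Krt8 and Krt18, the keratins of simple epithelia, at 100 or more with Krt5 and Krt14 under 100. A basal-keratin column had Krt5 and Krt14, the keratins of the basal layer, at 300 or more with Krt8 under 100. There were 65 simple-keratin, 54 basal-keratin and 78 mesenchymal columns, with 3 columns in which all 4 keratins were at 100 or more, 1 that met both the mesenchymal and the simple-keratin rule, and 36 remaining. With the limits at 0.5 or 2 times these values, 17 columns entered or left the simple-keratin state, 3 the basal-keratin state and 9 the mesenchymal state. Of the 16 paired cells, the 15 WT-KCB and WT-KCP cells were basal-keratin, and the WT-KCI cell was among the remaining.

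Each state is a range of measured values in 1 pool of columns and not a group of replicates, so no test was made between states. Shares of columns carry exact 95% Clopper-Pearson intervals and summed counts exact 95% Poisson intervals. The intervals of shares take columns as independent draws, and those of sums cover the counting of reads only. The reads carry no molecular identifiers, so amplification is not covered. Neither kind covers the spread between embryos. Columns held 2702464 to 19197937 counts (median 6938984). The median number of detected genes was 9763 in simple-keratin, 11892.5 in basal-keratin and 10892 in mesenchymal columns. Epcam, an epithelial adhesion gene, was at 10 CPM or more in 64 of 65 simple-keratin and 54 of 54 basal-keratin columns, with medians of 1161 and 359.7 CPM, and its median was 0 in mesenchymal columns. Ptprc (CD45) and Cd207 had no count in any column of the 3 states. Col3a1 was at 100 CPM or more in 32 of the 65 simple-keratin columns, and Col1a1 at 10 or more in 4. One simple-keratin column had 40.1% of its counts in Hbb-bt and Hba-a1, the haemoglobin genes, or 400781 CPM, against 2314 CPM in the next highest column of the table.

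The study's guide was designed on exon 5 of Trp63, which codes for part of the DNA-binding domain that TAp63 and ΔNp63 share. This exon, at chr16:25862279-25862465 of GRCm38 on the plus strand, is 187 bases long. It is present in 7 of the 8 annotated Trp63 transcripts, as exon 5 of 3 that start at the distal promoter and as exon 3 of 4 that start at the internal promoter. It is shown because it is the edited part of the transcript. The 19 capitals mark where the reverse primer of the study's genotyping by next-generation sequencing lies. The match of this primer runs on past the end of the exon.
Trp63 targeted exon: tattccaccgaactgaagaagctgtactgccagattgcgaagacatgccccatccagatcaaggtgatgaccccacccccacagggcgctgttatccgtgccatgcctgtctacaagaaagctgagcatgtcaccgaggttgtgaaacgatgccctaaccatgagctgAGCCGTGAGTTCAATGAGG
A count per gene reads Trp63 transcripts with and without a small insertion or deletion in this exon alike. The levels below are therefore levels of Trp63 transcript and say nothing of the protein.

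Trp63 was present as transcript in most simple-keratin columns, at lower and more scattered levels than in basal-keratin columns. It was at 10 CPM or more in 49 of 65 simple-keratin columns (75.4%, interval 63.1 to 85.2%) and in 54 of 54 basal-keratin columns (100%, interval 93.4 to 100%). In the mesenchymal columns, which should lack it, 2 of 78 reached this level (2.56%, interval 0.312 to 8.96%). The labelled fibroblasts are all of a single mutant embryo, so state and embryo may not be told apart here. In simple-keratin columns Trp63 ranged from 0.251 to 3378 CPM, with a median of 82.7 and quartiles of 16.1 and 232.0. In basal-keratin columns it ranged from 166 to 1288 CPM, with a median of 498 and quartiles of 341 and 616. The states overlapped in part: 25 simple-keratin columns were at or above the lowest basal-keratin column and 40 were below it, while 7 were above the basal-keratin median. In 72 of 78 mesenchymal columns Trp63 was at 0, and the 2 columns above 10 CPM held 43.7 and 50.5 CPM with no count of Krt5, Krt14, Krt8 or Epcam.

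The simple-keratin columns fell mostly into a low and a high range of Trp63. There were 14 columns under 2 CPM, with 2 to 17 counts each, and 4 columns between 5 and 20 CPM. All 14 of the low columns also held traces of Krt5 (0.130 to 7.22 CPM) and Krt14 (0.259 to 22.9 CPM), whereas no mesenchymal column had a single count of either gene. The traces of Krt14 were above 10 CPM in 2 of these columns. Which columns were sequenced together is not given in the sources used here, so the mesenchymal columns do not measure such traces in simple-keratin columns, and their part in the Trp63 counts was not tested. In the 3 simple-keratin columns with neither a Krt5 nor a Krt14 count, Trp63 was at 19.4, 57.9 and 232.0 CPM. The share of simple-keratin columns at 10 CPM or more was 66.7% (22 of 33) among those with both collagens under 100 CPM. It was 84.4% (27 of 32) among those with Col3a1 at 100 CPM or more. Their Trp63 medians were 60.8 and 155.7 CPM, in that order. Among those with Krt5 and Krt14 under 10 CPM the share was 73.5% (36 of 49). The column rich in haemoglobin had Trp63 under 10 CPM, and the share without it was 76.6%.

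**Figure D1:**
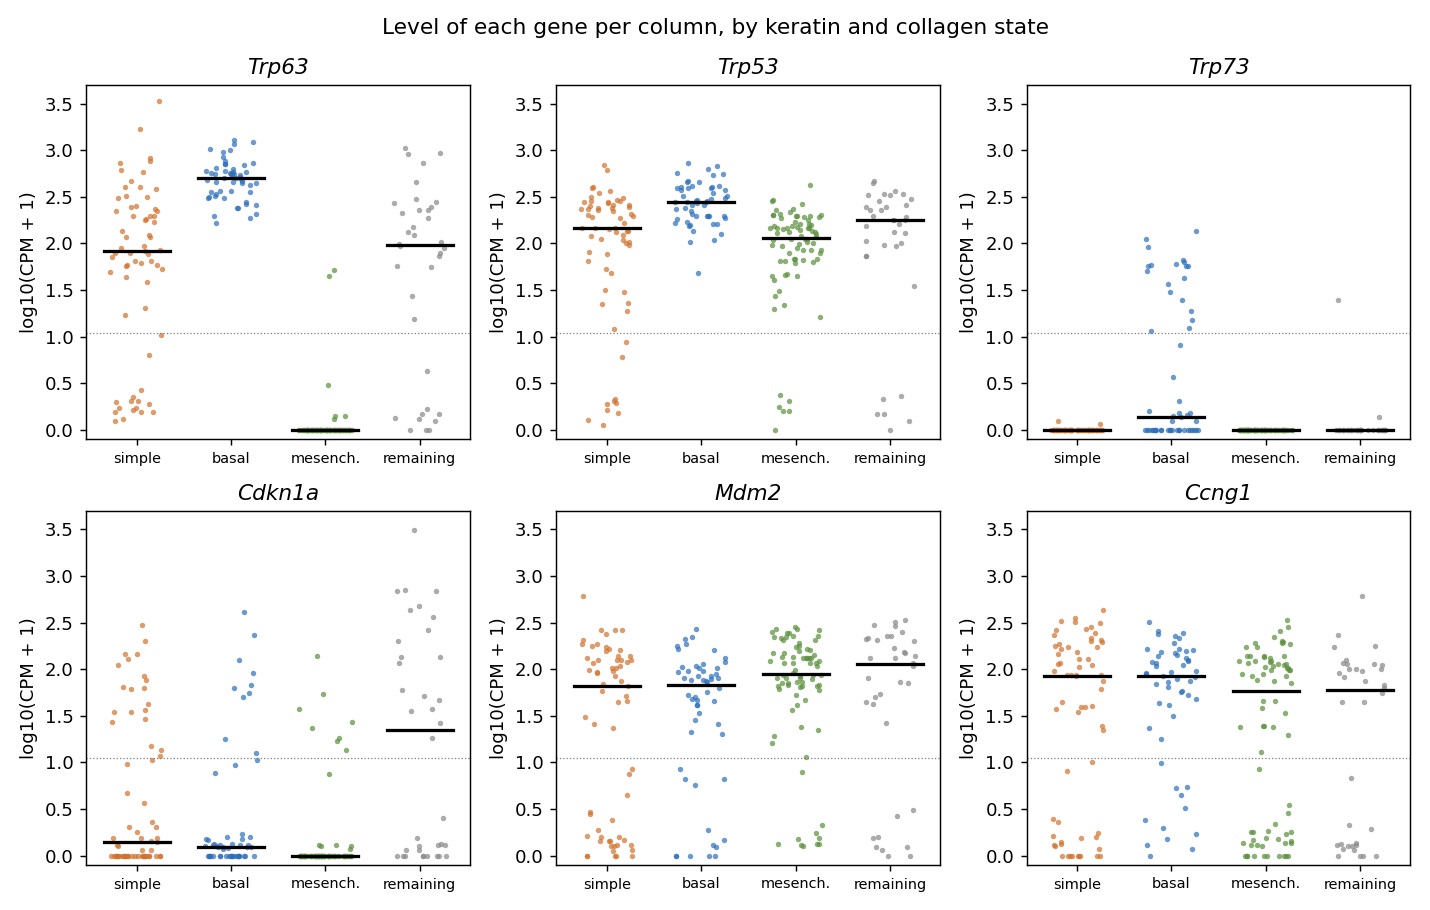
Level of each of the 6 genes in each column (points, log10 of CPM + 1) in the simple-keratin (n = 65), basal-keratin (n = 54), mesenchymal (n = 78) and remaining (n = 36) columns. Black lines are medians and the dotted line marks 10 CPM; Trp63 spreads from near 0 to 3378 CPM in simple-keratin columns, sits between 166 and 1288 CPM in basal-keratin columns, and is at 0 in 72 of 78 mesenchymal columns.

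Summed over columns, Trp63 was at 199.0 CPM in simple-keratin (interval 197.9 to 200.2) and 552.8 CPM in basal-keratin columns (interval 550.7 to 555.0), a log2 ratio of -1.47 on the scale of CPM + 1. A single simple-keratin column, at 3378 CPM, held 23.8% of the simple-keratin Trp63 counts, and the next highest was at 1675 CPM. Without the highest column of each state the log2 ratio was -1.79, and between the medians of the columns it was -2.58. All settings gave a lower level in simple-keratin columns, but its size depends on how columns are combined.

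The labels set a lower limit on how many mutant cells held Trp63 transcript, without placing any column. If the 237 columns are the 237 labelled cells, at most 66 can be wild type. Trp63 was at 10 CPM or more in 133 columns, so at least 67 of the 171 Trp63 mutant cells (39.2%) had this level. At 100 CPM or more there were 102 columns and at least 36 mutant cells, and at 200 CPM or more 84 columns and at least 18 mutant cells. The 49 simple-keratin columns at 10 CPM or more are fewer than the 50 wild-type cells whose columns are unpaired, so the count alone does not fix the genotype of simple-keratin columns. Beside the count, the labelled wild-type cells were mostly WT-KCB (45), WT-KCI (8) and WT-KCP (8), and wild-type cells were screened for Krt5. None of the 16 paired wild-type cells was simple-keratin.

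**Figure D2:**
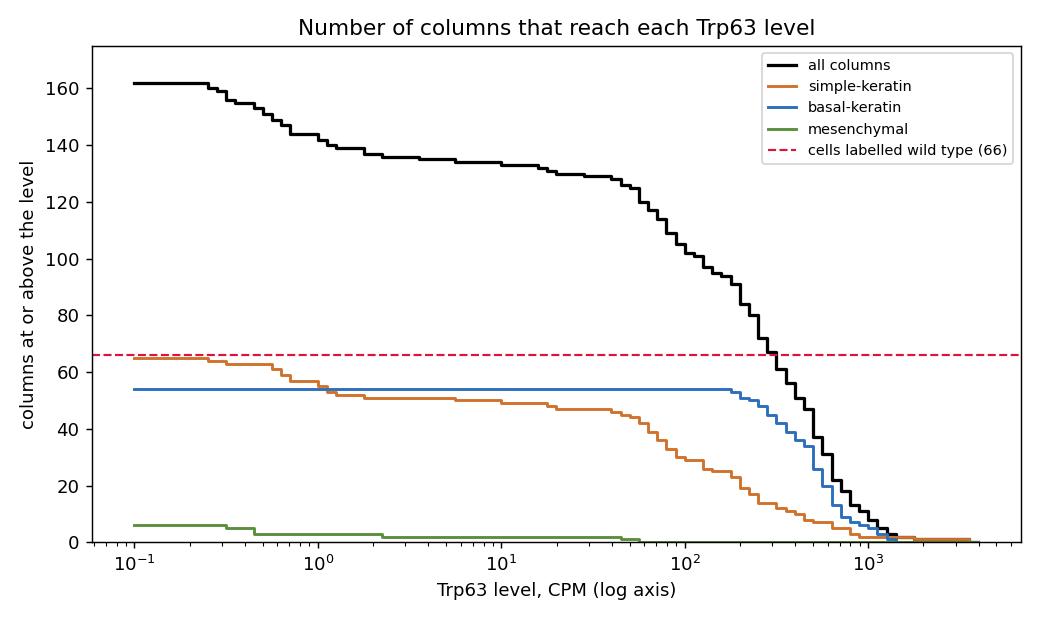
Number of columns (vertical axis) with Trp63 at or above a given level in CPM (horizontal log axis), for all columns and for the 3 states. The dashed line is the number of cells labelled wild type (66); at 10 CPM 133 columns lie at or above the level, 67 more than the line.

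Among the paired wild-type cells, Trp63 ranged from 304 to 637 CPM in the 11 WT-KCB cells, with a median of 464. The 4 WT-KCP cells held 337, 561, 733 and 1176 CPM, and the WT-KCI cell 273 CPM. WT-KCP overlapped WT-KCB, with 2 of 4 cells above every WT-KCB cell. The log2 ratio of the sums, WT-KCP against WT-KCB, was 0.73, short of 2-fold, and 0.29 without WT-KCP replicate 3. These are cells of 1 embryo, so the spread is between cells and not between animals.

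Trp73, the third family member and the least abundant, was found in columns with basal keratins. It was at 10 CPM or more in 19 of 54 basal-keratin columns (35.2%, interval 22.7 to 49.4%), with a highest value of 135.7 CPM and a median of 0.380. No simple-keratin column reached 10 CPM (0 of 65, which allows a share of up to 4.62% with 3 columns as the limit and 5.52% by the exact interval), and the highest was at 0.254 CPM. No mesenchymal column had a count (0 of 78, up to 3.85% and 4.62% by the same rules). Only 2 further columns reached 10 CPM, 1 with all 4 keratins at 100 or more (162 CPM) and 1 of the remaining (23.8 CPM). All 21 columns with Trp73 at 10 CPM or more had Krt5 and Krt14 at 300 or more, out of 59 such columns, and Trp63 at 337 CPM or more. The summed level was 16.8 CPM in basal-keratin columns (7779 counts) and 0.00536 CPM in simple-keratin columns (3 counts), a ratio of 3140 with a counting interval of 1074 to 15229. Against mesenchymal columns, with 3 counts over the group as the limit for none, it was at least 2646-fold higher. Trp73 overlaps the antisense gene Trp73os, and reads of the pair cannot be told apart where strand was not counted.

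In the paired cells Trp73 was higher in WT-KCP than in WT-KCB. The 4 WT-KCP cells held 29.5, 35.9, 41.5 and 64.5 CPM. The 11 WT-KCB cells ranged from 0 to 23.6 CPM with a median of 0.237, and 2 of them were above 10 CPM (17.6 and 23.6). The WT-KCI cell had no count. The log2 ratio of the sums was 3.19, where 15.5% of genes were past 2-fold higher. Beside this, Mki67, a marker of cycling cells, was at 342 to 579 CPM in WT-KCP and 0.222 to 336 CPM in WT-KCB, and Krt17 at 1715 to 3901 against 4.37 to 613 CPM. All 4 cycling genes (Mki67, Top2a, Ccnb1 and Cdk1) were past 2-fold higher in WT-KCP. Their part in the Trp73 difference was not tested.

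Trp53 was detected broadly, and among the simple-keratin, basal-keratin and mesenchymal states its summed level was highest in basal-keratin columns. It was at 10 CPM or more in 55 of 65 simple-keratin (84.6%), 54 of 54 basal-keratin (100%) and 72 of 78 mesenchymal columns (92.3%). The medians were 144.7 CPM in simple-keratin (range 0.114 to 687), 278 in basal-keratin (range 47.6 to 734) and 113 in mesenchymal columns (range 0 to 424). The 3 ranges overlapped. The log2 ratio of the sums was -0.86 for simple-keratin and -1.25 for mesenchymal against basal-keratin columns. In the paired cells Trp53 held 134, 208, 395 and 452 CPM in WT-KCP and 47.6 to 669.9 CPM in WT-KCB (median 279.8), with a log2 ratio of -0.13. Before rounding, Trp53 counts carried a fraction in 3.80% of columns and Cdkn1a counts in 9.70%, and how reads were shared out is not given in the sources used here.

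**Figure D3:**
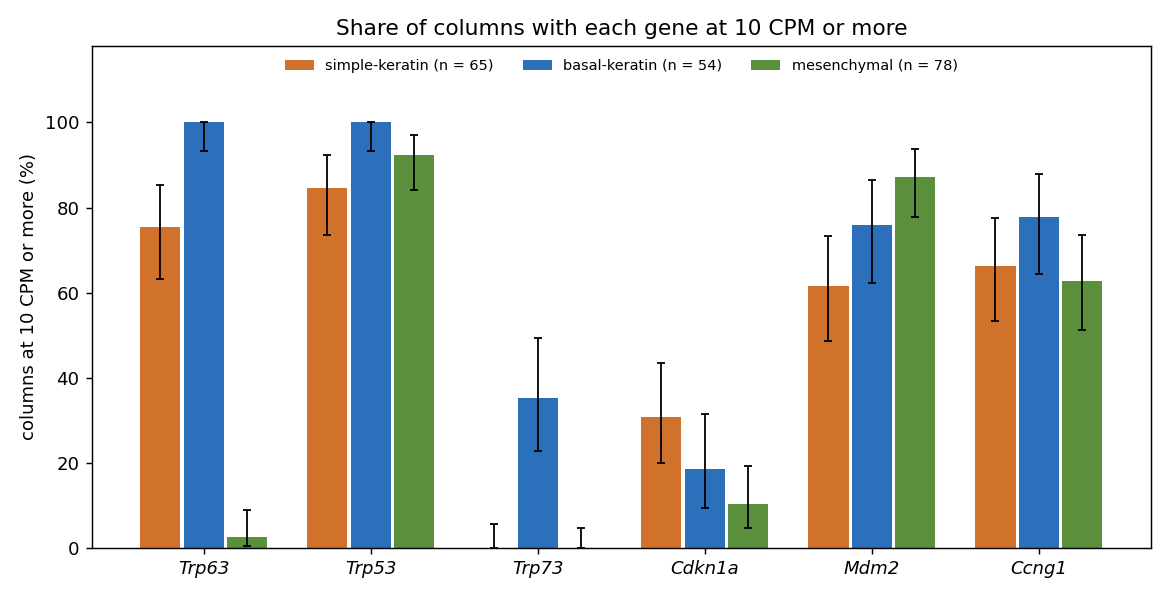
Percent of columns (vertical axis) with each gene at 10 CPM or more in simple-keratin (n = 65), basal-keratin (n = 54) and mesenchymal (n = 78) columns. Error bars are exact 95% Clopper-Pearson intervals; Trp63 goes from 100% in basal-keratin over 75.4% in simple-keratin to 2.56% in mesenchymal columns, while Trp73 is at 0% in simple-keratin and mesenchymal columns.

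Cdkn1a was at or near 0 in most simple-keratin, basal-keratin and mesenchymal columns and high in a minority. In the 36 remaining columns its median was 21.1 CPM. It was at 10 CPM or more in 20 of 65 simple-keratin (30.8%, interval 19.9 to 43.4%), 10 of 54 basal-keratin (18.5%, interval 9.25 to 31.4%) and 8 of 78 mesenchymal columns (10.3%, interval 4.53 to 19.2%). The highest values were 294, 407 and 138 CPM. Summed levels were 24.99 CPM in simple-keratin and 24.2 CPM in basal-keratin columns, a log2 ratio of 0.05. The mesenchymal sum was 4.09 CPM, a log2 ratio of -2.30 against basal-keratin columns. In the paired cells the 4 WT-KCP cells held 0, 0, 0.285 and 0.315 CPM, and the 11 WT-KCB cells 0 to 48.7 CPM with a median of 0.232. The log2 ratio of -2.41 between these sums rests on 1 cell, WT-KCB replicate 10 at 48.7 CPM, without which it was -0.78.

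The single WT-KCI cell had 701 CPM of Cdkn1a, above every one of the other 15 paired cells. It had Krt1 and Krt10, the keratins of differentiating suprabasal cells, at 13862 and 15379 CPM. After its value was seen, the 8 columns with both genes at 1000 CPM or more, this cell included, were listed. In order of level, their Cdkn1a levels were 66.4, 229, 264, 357, 429, 475, 694 and 701 CPM, the last being the WT-KCI cell itself. Of the 54 basal-keratin columns, 5 were at or above the lowest of these 8, 2 of them being among the 8 themselves. The same 8 columns held Trp63 at 3.27 to 273 CPM, with a median of 191, and no Trp73 count. The highest Cdkn1a level of all, 3129 CPM, was in a remaining column with Ccng1 at 614 CPM, Dcx, a gene of migrating neurons, at 360 CPM, the other neural markers Tubb3 and Sox10 at 0, and Trp53, Mdm2 and Trp63 each at 0.245 CPM.

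The Cdkn1a promoter shows the kind of element through which the family acts, and is printed for that reason. RefSeq promoters of 5 of the 6 genes were available (7 windows of 300 bases, GRCm38.p6), and Trp63 had no entry. They were searched on both strands for the p53 response element, a palindromic pair of decamers, taken here without a spacer. The core of each decamer had to be intact, with at most 2 mismatches elsewhere. Sequence outside these windows was not searched. Within these windows Cdkn1a alone among these genes had a match, in the upstream 1 of its 2 windows. It had 1 mismatch and lay 31 bases before the upstream start site. Of 32851 promoter windows in the mouse, 0.158% had a match. The sequence lies at chr17:29090888-29090978 on the plus strand, with the element in capitals.
Cdkn1a promoter: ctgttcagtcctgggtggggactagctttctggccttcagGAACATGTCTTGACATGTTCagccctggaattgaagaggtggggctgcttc
The match is a description of letters, and binding was not measured.

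Mdm2 and Ccng1 were found in most columns, and the summed level of each lay within 2-fold between the 3 states. Mdm2 was at 10 CPM or more in 40 of 65 simple-keratin (61.5%, interval 48.6 to 73.3%), 41 of 54 basal-keratin (75.9%, interval 62.4 to 86.5%) and 68 of 78 mesenchymal columns (87.2%, interval 77.7 to 93.7%). Its medians were 64.8, 66.7 and 88.1 CPM, and its ranges, 0 to 611, 0 to 268 and 0.267 to 282 CPM, overlapped. The log2 ratio of the sums against basal-keratin columns was 0.28 for simple-keratin and 0.60 for mesenchymal columns.

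Ccng1 was at 10 CPM or more in 43 of 65 simple-keratin (66.2%), 42 of 54 basal-keratin (77.8%) and 49 of 78 mesenchymal columns (62.8%). Its medians were 83.1, 82.5 and 57.5 CPM, with log2 ratios of the sums of 0.03 and -0.31 against basal-keratin columns. In the paired cells Mdm2 held 0, 5.67, 176 and 212 CPM in WT-KCP against 0.485 to 268 in WT-KCB, and Ccng1 2.21, 56.8, 77.9 and 140.8 against 0.508 to 155 CPM. Both genes overlapped between these groups. At least 1 of the 3 target genes was at 10 CPM or more in 55 of 65 simple-keratin, 52 of 54 basal-keratin and 75 of 78 mesenchymal columns, and all 3 in 11, 7 and 5 columns.

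**Figure D4:**
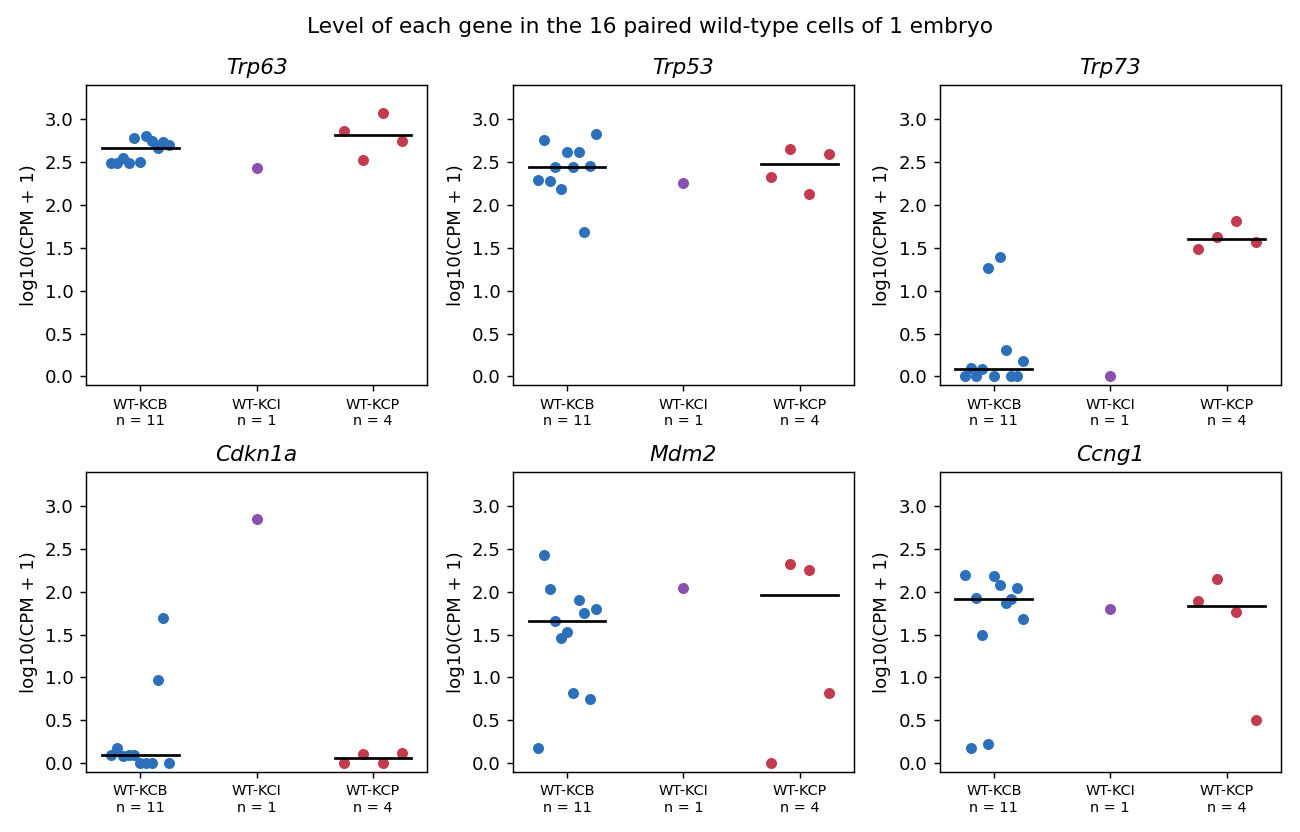
Level of each gene (vertical axis, log10 of CPM + 1) in the paired wild-type cells of 1 embryo, 11 WT-KCB, 1 WT-KCI and 4 WT-KCP, with medians as lines. Trp73 is at 29.5 to 64.5 CPM in WT-KCP and 0 to 23.6 CPM in WT-KCB, and Cdkn1a is highest in the WT-KCI cell, at 701 CPM.

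Past 2-fold between sums, 2 of the 6 genes were lower in simple-keratin than in basal-keratin columns (Trp63 and Trp73), where 12.3% of 15483 genes were that much lower, and 0 were higher, where 17.5% of genes were. In mesenchymal against basal-keratin columns 4 were lower (Trp63, Trp73, Trp53 and Cdkn1a; 18.7% of 15618 genes) and 0 higher (18.4% of genes). In WT-KCP against WT-KCB 1 was higher (Trp73; 15.5% of 14585 genes) and 1 lower (Cdkn1a; 22.1% of genes). The median log2 ratio over all genes was 0.05, -0.22 and -0.09 in these comparisons. Where a group had next to no Trp73 count, its log2 ratio depends on the pseudocount. The mesenchymal comparison shares its basal-keratin columns with the simple-keratin comparison.

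Levels were set side by side between genes only per kilobase of exon, as summed CPM per kb. The length was that of all annotated exons of a gene joined, 8391 bases for Trp63 and 4045 for Trp53. It is not the length of the transcripts expressed, and the order of genes may depend on it. In basal-keratin columns Trp53 came first at 71.5, then Trp63 at 65.9, Ccng1 at 26.5, Mdm2 at 14.3, Cdkn1a at 6.80 and Trp73 at 3.04. Trp53 and Trp63 did not differ beyond their spread, with quartiles over columns of 47.9 to 97.3 and 40.7 to 73.4 CPM per kb. In simple-keratin columns the order was Trp53 at 39.3, Ccng1 at 26.99, Trp63 at 23.7, Mdm2 at 17.4 and Cdkn1a at 7.03, with overlapping quartiles among the first 4. In mesenchymal columns it was Trp53 at 30.0, Mdm2 at 21.8, Ccng1 at 21.3, Cdkn1a at 1.15 and Trp63 at 0.121.

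Of 23 further p53 targets, 3 were past 2-fold higher (17.5% of all genes) and 4 lower (12.3% of all genes) in simple-keratin than in basal-keratin columns, with a median log2 ratio of -0.13. These counts are near those over all genes. Trp53inp1, a stress-induced regulator of p53, was higher in simple-keratin columns (202 against 38.8 CPM, log2 ratio 2.35), as was Rrm2b, a ribonucleotide reductase subunit (17.5 against 2.89 CPM, 2.25). Phlda3, an inhibitor of Akt, was lower (14.6 against 69.5 CPM, -2.18). The third higher one was Plk2, a kinase (375.6 against 115 CPM, 1.70), and Gtse1, a gene of dividing cells, was lower (25.2 against 63.9 CPM, -1.31); both were named after their values were seen. The death receptor Fas was at 10 CPM or more in 0 of 65 simple-keratin and 6 of 54 basal-keratin columns, and Eda2r in 0 and 2. Against basal-keratin columns, mesenchymal columns had 2 of 23 higher (18.4% of all genes), Apaf1 of the apoptosome (92.4 against 25.4 CPM, 1.82) and Eda2r, and 8 lower (18.7% of all genes), among them Sesn2 (4.92 against 43.01 CPM, -2.89), Plk2 (27.1 against 115, -2.04) and Trp53inp1 (10.2 against 38.8, -1.83), with a median of -0.72. In WT-KCP against WT-KCB 6 of 21 targets that could be compared were higher (15.5% of all genes) and 4 lower (22.1% of all genes), with a median of 0.26. The largest were Pmaip1, Zmat3, Sesn1 and Tnfrsf10b, at log2 ratios of 3.71, -2.81, -2.24 and 2.21, and Pmaip1 was at 10 CPM or more in 1 of 4 and 1 of 11 cells.

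Of the regulators of p53, 6 of 7 could be compared between states. Chek2, a kinase that activates p53, was past 2-fold lower in simple-keratin (9.71 against 38.8 CPM, log2 ratio -1.89) and in mesenchymal columns (15.2 CPM, -1.30), and 0 were higher. Of all genes, 12.3% were lower and 17.5% higher in simple-keratin columns, and 18.7% lower and 18.4% higher in mesenchymal columns. The count of 1 of 6 lower is near these shares. Mdm4, the partner of Mdm2, was at 83.0, 62.6 and 61.6 CPM in simple-keratin, basal-keratin and mesenchymal columns. In WT-KCP, 2 were past 2-fold higher (15.5% of all genes) and 0 lower (22.1% of all genes). The higher ones were Wrap53 (78.3 against 17.6 CPM, 2.09), whose gene lies beside Trp53 on the opposite strand, and Mdm4 (125 against 51.8 CPM, 1.26).

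Of 12 genes known as p63 targets in epidermis, 5 were past 2-fold lower in simple-keratin than in basal-keratin columns (12.3% of all genes), 0 were higher (17.5% of all genes), and the median log2 ratio was -0.46. The lower ones were Fgfr2, a receptor for fibroblast growth factors (38.6 against 854 CPM, -4.43), Jag2, a Notch ligand (4.41 against 90.4, -4.08), Perp, a desmosomal membrane protein (392 against 1945, -2.31), Cdh3, P-cadherin (108 against 362, -1.74), and Ripk4. Satb1, a chromatin organizer, was at 156 against 131 CPM and was picked after its value was seen. In mesenchymal columns 11 of 12 were past 2-fold lower (18.7% of all genes), with a median of -5.00, Perp lying lowest at 1.33 against 1945 CPM. In WT-KCP against WT-KCB, where 15.5% of all genes were higher and 22.1% lower, 2 were higher (Dlx3 at 48.1 against 13.1 CPM and Evpl at 39.1 against 15.2) and 2 lower, among them Fras1 at 42.9 against 167.5 CPM, with a median log2 ratio of 0.01. Beside these, the sums of all 4 cycling genes were past 2-fold lower in simple-keratin than in basal-keratin columns (median log2 ratio -1.69). So were those of 2 of 5 stress genes, Atf3 and Jun (12.3% of all genes). The medians of the columns were higher in simple-keratin columns for Atf3 (139 against 63.5 CPM) and Fos (3006 against 592). They were also higher for Egr1 (2710 against 1678) and Hspa1a (55.1 against 33.6), and lower for Jun (702 against 901). Over mesenchymal columns the sums of 1 of 4 cycling and 4 of 5 stress genes were past 2-fold lower, and in WT-KCP those of 3 of 5 stress genes were. The part of cycling and stress in the levels of the 6 genes was not tested.

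**Figure D5:**
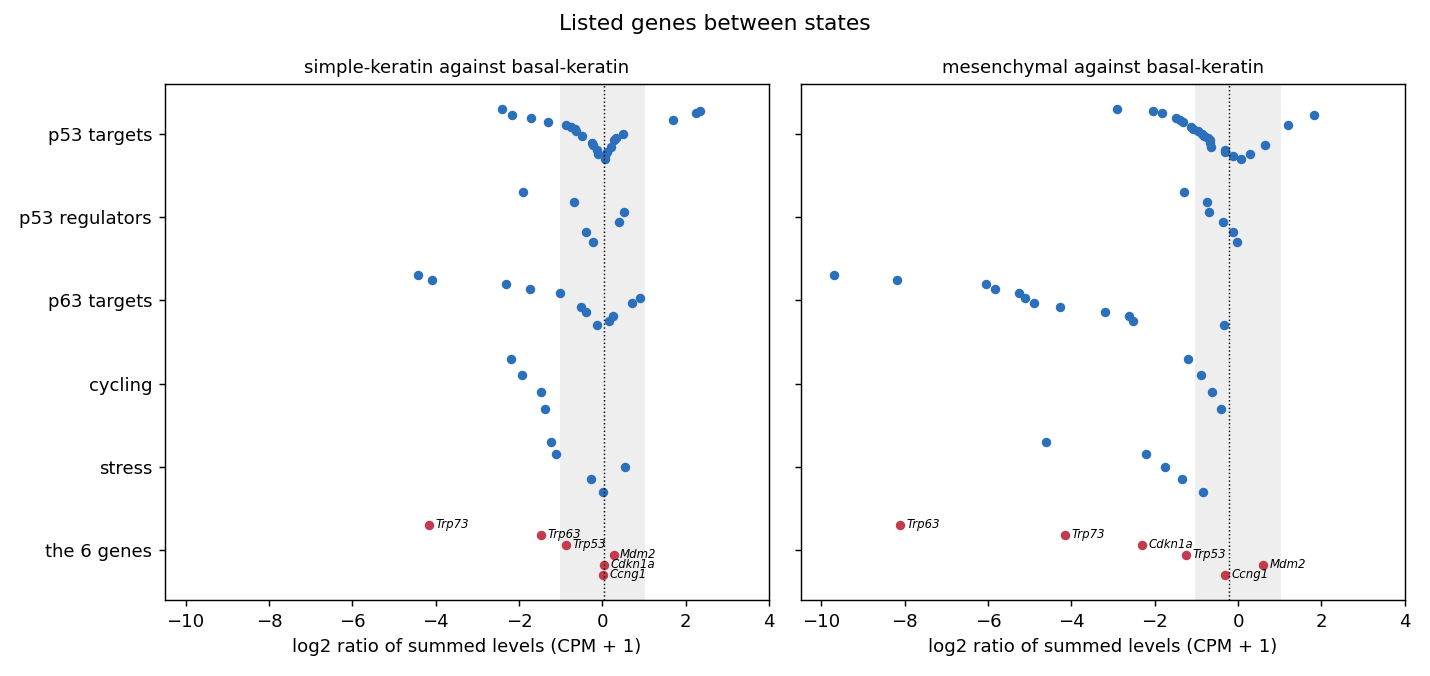
Log2 ratio of summed levels (CPM + 1, horizontal axis) against basal-keratin columns for the genes of each list (points), in simple-keratin columns on the left and mesenchymal columns on the right. The grey band is within 2-fold and the dotted line the median of all genes; Trp63 and Trp73 lie left of the band in both panels, at -1.47 and -4.15 on the left and -8.10 and -4.16 on the right.

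Pairs of the 6 genes had low correlations within a state. Over the 65 simple-keratin columns Pearson's r of log2(CPM + 1) lay between 0.00 and 0.30 for the pairs without Trp73, the highest being Trp53 with Mdm2 (Spearman's rho 0.17). Trp73 had 3 counts in these columns, too few for a correlation. Over the 54 basal-keratin columns it lay between -0.38 (Trp53 with Cdkn1a, rho -0.27) and 0.34 (Trp63 with Trp73, rho 0.37). Mdm2 went with the heat shock gene Hspa1a at r = 0.39 in simple-keratin columns, and Cdkn1a with Hspa1a and Fos at 0.41 and 0.40 in basal-keratin columns. Trp63 went with total counts at r = -0.27 in simple-keratin and 0.21 in basal-keratin columns. The columns of a state share embryos and preparation to an unknown extent, and these values are descriptions without a test.

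The genes most like Trp63 over all 237 columns were Map7, Pkp3, Sfn, Cdh1 and Kremen2, with r of 0.80, 0.79, 0.77, 0.77 and 0.77 among 16269 genes. These values span the states, with Trp63 at 0 in 72 of 78 mesenchymal columns. Over basal-keratin columns they were Col17a1, Fgfr2, Serpinh1, Cables1 and Ctnnal1 (r of 0.53 to 0.48 among 14759 genes), with Cables1 at 10 CPM or more in 9 of 54 columns. Over the 65 simple-keratin columns they were Dimt1, Tax1bp1, Gm11007, Tia1 and Ash2l (r of 0.52 to 0.49 among 15438 genes). How high the top r of so many unrelated genes would be was not tested. No gene stood in 2 of these lists. Of the 12 listed p63 targets, Cdh3 had the highest r with Trp63 in simple-keratin columns (0.40) and Fgfr2 in basal-keratin columns (0.52).

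The 3 columns with all 4 keratins at 100 CPM or more differed widely. Trp63 was at 1.74, 343 and 395 CPM, and the Cdkn1a levels of the same columns were 217, 389 and 0 CPM. The first of them had the most Krt14 (25107 CPM) and the least Trp63. In the column that met both the mesenchymal and the simple-keratin rule, Trp63 was at 0.280 CPM and Trp53 at 197.0 CPM. The 36 remaining columns held Trp63 at 10 CPM or more in 26 and Cdkn1a in 19.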

How the data were processed

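SMART-Seq HT cDNA of sorted single cells went into Nextera XT libraries, which carry no molecular identifiers. The authors trimmed reads with Trimmomatic, aligned them to mm10 with HISAT2, counted them with featureCounts on Ensembl genes, and deposited estimated counts per gene and column, without normalization. Whether counting used strand is not given in the sources used here. Of the values above 0, 23.2% carried a fraction; all were rounded. All 37 mitochondrial genes had 0 counts. CPM is the count over the column total. Log2 ratios used summed columns and a pseudocount of 1 CPM, and genes at 1 CPM or more in the sum of both groups formed the background. The calculation was tested on simulated data. Exon lengths, positions and the exon sequence came from GENCODE vM21 (GRCm38), and the promoter from RefSeq. Named genes were the 6 genes, up to 4 genes of largest ratio per list, and the 5 genes most like Trp63; the members and lists were chosen with earlier results of these data known. Alternatives changed the limits of the states, the level, the pseudocount, the rounding, the totals and the way columns are combined. Software was Python 3.11.15, scipy 1.17.1 for intervals, pandas 2.3.3 and numpy 2.4.6 for tables, and matplotlib 3.10.9. The values of 2 listed genes are not reported here.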

Additional observations from a re-analysis of the deposited data

How the results depend on the processing

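The shares of columns with Trp63 stayed within their intervals, and the least number of mutant cells within 1.5 times, under the alternatives run other than 100 CPM as the level counted. The simple-keratin share was 66.7 to 84.6% and the least number 67 to 76 under these. At 100 CPM the share was 44.6% of simple-keratin and 0% of mesenchymal columns, and the least number of mutant cells was 36. The Trp63 log2 ratio of simple-keratin against basal-keratin columns kept its sign throughout. It was -1.42 and -1.43 with the limits of the states at 0.5 and 2 times, -1.49 with the column meeting 2 rules counted in both states, -1.19 with means and -2.58 with medians of the columns' CPM, and -1.79 without the column with the most Trp63 in each state. With alternatives chosen after the data were seen, it was -1.29 in simple-keratin columns without collagen, -1.98 in those with Krt5 and Krt14 under 10 CPM, and -1.43 without the column rich in haemoglobin. Past 2-fold, medians left 1 gene between simple-keratin and basal-keratin columns and 2 between mesenchymal and basal-keratin columns, and a 4-fold limit left 1 between simple-keratin and basal-keratin columns. Leaving out each WT-KCP or WT-KCB cell in turn gave 1 to 3 genes past 2-fold, with 1 without WT-KCB replicate 10 and 3 without WT-KCB replicate 2, WT-KCP replicate 1 or WT-KCP replicate 4. Of 246 alternative values of the log2 ratios of the 6 genes, 235 kept their sign, and no ratio past 2-fold reversed. No column fell under 1000000 counts or 5000 detected genes, so that filter changed nothing. Of the 5 genes rich in rRNA reads, 4 were found, and they held 0.00279 to 14.96% of a column's counts. No paired analysis was possible because no test was made: the columns carry no replicate numbers shared between groups.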
